A study of Mus musculus with 2 samples.

Results

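The cells described here are 95 barcodes from embryonic mouse tissue that held transcripts of liver sinusoidal endothelium. They were found among 16572 barcodes that passed the filters, 35 in a library from E10.5 embryos and 60 in a library from E11.5 embryos. A member had at least 2 molecules (UMIs, unique molecular identifiers) of Cdh5, the adhesion protein of endothelial junctions. It also had at least 3 UMIs in sum of Stab2, Lyve1 and Oit3. Stab2 is a scavenger receptor for hyaluronan, Lyve1 a hyaluronan receptor and Oit3 a secreted protein of sinusoidal endothelium. At most 1 UMI of the arterial connexins Gja4 and Gja5, at most 2 of the macrophage genes C1qa, C1qb and C1qc, and none of Runx1 were allowed. A barcode passed the filters with 2000 or more UMIs, 500 or more genes and no more than 10% of UMIs from mitochondrial genes. The genes of this rule chose the cells, so their levels are no result.

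The study profiled single cells of C57BL/6 embryos at 2 stages of blood formation, with no genotype or treatment given in the labels. At each stage 1 library pooled fetal liver with the dorsal aorta and the tissue around it. The tissue was dissociated with collagenase/dispase and then trypsin-EDTA. The number of embryos was not given in the sources used here, and no label tells an aorta cell from a liver cell, so the organ of each member is not known. With 1 library per stage there is no replicate and no test. A difference between stages is a difference between these libraries, and every 95% interval covers counting error only. The libraries held 10996 and 12289 barcodes with 151474708 and 159619785 UMIs over 31053 genes, of which 7665 and 8907 barcodes passed. Stage cannot be told apart from dissection, dissociation and depth.

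Sinusoids are the wide, leaky capillaries of the liver. Their endothelium lacks a continuous basement membrane and clears proteins, hyaluronan and particles from the blood through scavenger and lectin receptors. In the adult liver the transcription factors GATA4 and MAF are known to maintain this endothelium, and its BMP and WNT ligands instruct hepatocytes. In the embryo the liver vessels form as hepatoblasts grow into the veins around the liver bud, and they house the blood cells that settle there.

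Sinusoid markers outside the rule went with the label in only some of the members. They were split into 3 kinds by counts of the rule genes. The Oit3-rich members had at least 3 UMIs of Oit3 (19 cells in the E10.5 library and 34 in the E11.5 library). The Stab2-led members had at most 2 UMIs of Oit3 and at least 1 of Stab2 (9 and 21 cells). The Lyve1-alone members had neither Stab2 nor Oit3 (7 and 5 cells). The Oit3 limit was chosen after the per-cell values were seen, and it cuts a range rather than marking a type. Just inside the limit, 4 members at E10.5 and 1 at E11.5 had 3 or 4 UMIs of Oit3, and just outside it 2 and 11 had 1 or 2. A further 15 and 33 members had 5 or more, and 14 and 15 had none. At the limit of the whole rule, 6 and 2 members had a sum of exactly 3 over Stab2, Lyve1 and Oit3, and 9 and 13 barcodes that met the other terms had a sum of exactly 2.

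Of 10 sinusoid markers outside the rule, the Oit3-rich members summed to 846 CPM at E10.5 and 1326 CPM at E11.5. CPM is the UMIs of a gene scaled to 1e+06 UMIs of genes other than haemoglobin and mitochondrial genes, summed over the cells of a class. The Stab2-led members summed to 230.3 and 367 CPM, close to the 281 and 324 CPM of capillary and venous endothelium and the 279 and 269 CPM of arterial endothelium. The Lyve1-alone members had 339 and 456 CPM, of which the scavenger receptor Stab1 made 184 and 320.4 CPM. Stab1 and Clec1b, which are given below, made most of the sum in capillary and venous endothelium. Of the endothelial classes, only the Oit3-rich members are described below as sinusoid-like. This is a name and not a tested identity. The Oit3 limit was chosen with per-cell values known, and the per-cell values include some of these markers, so their sum is no independent support. The 10 markers are not particular to sinusoids, since they summed to 1359 and 1960 CPM in macrophages. The other kinds are called by their rule. Capillary and venous endothelium here means Cdh5 barcodes with none of Stab2, Lyve1 and Oit3 that met the other terms (59 and 36 cells). Arterial endothelium means Cdh5 barcodes with at least 2 UMIs of Gja4 and Gja5 that met the terms for C1qa, C1qb, C1qc and Runx1 (190 and 81 cells). It had no limit on Stab2, Lyve1 and Oit3. Oit3 was found in 8 and 10 arterial cells, with up to 31 and 19 UMIs in a cell.

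Promoter sequences of 3 genes that stood far higher in the Oit3-rich members than in capillary and venous endothelium are shown because GATA4 is one of the factors of this endothelium. Ehd3 encodes an endocytic recycling protein, Mrc1 the mannose receptor, and Gatm an enzyme of creatine synthesis. The sequences are from RefSeq on GRCm38.p6 and run 5′ to 3′ towards the start site, with coding bases left out. They lie at chr17:73804591-73804840 on the plus strand, chr2:14229164-14229391 on the plus strand and chr2:122611304-122611527 on the minus strand. Capitals mark a match on either strand to the GATA letters, which are AGATAA, or the same with G as the last letter (AGATAG), or with T as the first letter (TGATAA), or with both (TGATAG). The Ehd3 window also lies in an exon of a noncoding transcript of the gene.
Ehd3: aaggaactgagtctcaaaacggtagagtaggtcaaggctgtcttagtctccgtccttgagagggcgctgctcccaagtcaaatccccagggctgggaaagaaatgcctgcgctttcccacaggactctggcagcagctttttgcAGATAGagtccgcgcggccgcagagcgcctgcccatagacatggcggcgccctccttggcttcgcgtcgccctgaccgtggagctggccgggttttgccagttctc
Mrc1: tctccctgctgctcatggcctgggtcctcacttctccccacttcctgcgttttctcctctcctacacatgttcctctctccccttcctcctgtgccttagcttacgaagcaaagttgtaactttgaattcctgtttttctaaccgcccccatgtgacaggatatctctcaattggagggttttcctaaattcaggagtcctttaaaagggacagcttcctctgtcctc
Gatm: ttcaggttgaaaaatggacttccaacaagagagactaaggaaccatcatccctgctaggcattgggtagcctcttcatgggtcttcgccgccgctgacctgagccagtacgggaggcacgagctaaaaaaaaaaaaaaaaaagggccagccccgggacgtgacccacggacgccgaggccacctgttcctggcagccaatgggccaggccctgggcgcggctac
The Ehd3 window holds 1 match, 106 bases before the start site, and the Mrc1 and Gatm windows hold 0. Of all 32851 promoter windows of 250 bases, 8718 (26.5%) hold at least 1 match. Of the 12 genes named below as higher in Oit3-rich members than in capillary and venous endothelium, 7 had a window and 2 of those (28.6%) held a match. For the 12 genes named over all members, 3 of 7 (42.9%) did. A match is a description of letters and not of binding.

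Ehd3, Gpr182 and Mrc1, which handle cargo or ligands at the cell surface, were present in most Oit3-rich cells and at lower levels in the other kinds. Ehd3 (ENSMUSG00000024065, chromosome 17, 73804134 to 73832094, plus strand, mm10) ranged from 0 to 652 CPM with a median of 249.8 CPM over the 19 Oit3-rich cells at E10.5. At E11.5 it ranged from 26.0 to 2018 CPM with a median of 780.0 CPM over 34 cells. In the Stab2-led cells its median was 6.88 CPM at E10.5 and 0 at E11.5, with a highest cell of 579.9 CPM. The ranges of the kinds overlap, but their medians lie far apart. Summed over cells, Ehd3 was at 243 (206 to 285) and 735 (686 to 787) CPM in the Oit3-rich members. It was at 5.04 and 14.5 CPM in capillary and venous endothelium, 34.7 and 69.6 CPM in arterial endothelium, and 1.69 and 0.892 CPM in hepatoblasts. That is 48.3-fold higher at E10.5 and 50.7-fold higher at E11.5 than in capillary and venous endothelium of the same library.

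Gpr182, an atypical receptor that scavenges chemokines (ENSMUSG00000058396, chromosome 10, 127747276 to 127751732, minus strand), had a median of 235 CPM per Oit3-rich cell at E10.5, with a range of 0 to 450.0. At E11.5 the median was 313 CPM and the range 26.0 to 724. The sums were 256 (218 to 299) and 318 (286 to 353) CPM against 9.08 and 13.1 CPM in capillary and venous endothelium, a 28.2-fold and 24.4-fold difference. Gpr182 was thus about as far above other endothelium at both stages. Mrc1 (ENSMUSG00000026712, chromosome 2, 14229392 to 14332057, plus strand) had a median of 55.2 CPM (0 to 259.9) per Oit3-rich cell at E10.5 and 237 CPM (0 to 490.3) at E11.5. Its sum was 81.7 (60.8 to 107) and 234 (206 to 264) CPM. Capillary and venous endothelium had 0 UMIs at E10.5, which makes the difference at least 54.0-fold against 3 counts. At E11.5 the fold was 53.6, and it rests on 3 of 36 capillary and venous cells with at most 1 UMI each. Macrophages held more Mrc1 than any endothelium, at 558 and 629 CPM. The 6 macrophage markers outside the rule summed to 3.20 and 3.53 CPM in the Oit3-rich members against 1289 and 2615 CPM in macrophages.

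Gata4, a transcription factor of sinusoidal endothelium, stellate cells and heart (ENSMUSG00000021944), was found in 14 of 19 Oit3-rich cells at E10.5 and 27 of 34 at E11.5. Its sum was 104 (80.3 to 133) and 82.0 (66.2 to 100) CPM, 20.6-fold and 14.1-fold that of capillary and venous endothelium. Only 3 of 59 and 3 of 36 capillary and venous cells held a UMI, so these folds rest on few counts. At least 1 UMI was present in 3 of 9 and 1 of 21 Stab2-led cells, in 1 of 7 and 1 of 5 Lyve1-alone cells, and in 22 of 190 (11.6%) and 6 of 81 (7.41%) arterial cells. Gata4 therefore set the Oit3-rich members apart at both stages without a higher level at E11.5. Maf, a partner factor in sinusoids, was at 141 and 279 CPM against 16.1 and 36.3 CPM in capillary and venous endothelium. Tfec, a MITF-family factor, was at 28.8 and 40.6 CPM against 5.55 CPM and 0. Of the blood and endothelial factors, Tal1 was at 25.6 and 26.4 CPM against 25.2 and 18.9 CPM, and Lyl1 at 22.4 and 27.3 CPM against 37.8 and 30.5 CPM. Lmo2 was at 162 and 88.2 CPM against 244 and 338 CPM in capillary and venous endothelium.

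Shares of cells with a UMI depend on depth, so they were also taken after thinning each cell to 5000 UMIs. Median depth was 28559 and 34689 UMIs in the Oit3-rich members, 70746 and 49993 in the Stab2-led members, and 37779.5 and 37729.5 in hepatoblasts. With thinning, Ehd3 was detected in 73.7% and 85.3% of Oit3-rich cells (94.7% and 100% before). In hepatoblasts, which should lack it, the thinned share was 1.39% and 0% (5.26% and 1.77% before). For Gpr182 the thinned shares were 63.2% and 70.6% (94.7% and 100% before) against 1.39% and 4.87% in hepatoblasts (17.1% and 25.2% before). Stab2-led cells held Gpr182 in 11.1% and 28.6% after thinning (55.6% and 66.7% before). For Mrc1 the thinned shares of Oit3-rich cells were 31.6% and 67.6% (78.9% and 97.1% before), with 0 of 76 and 0 of 226 hepatoblasts holding a UMI before thinning. For Gata4 they were 31.6% and 35.3% (73.7% and 79.4% before) against 1.39% and 0.885% in hepatoblasts (7 of 76 and 26 of 226 before). Stab2-led cells, the deepest of the kinds, had Ehd3 in 0% and 14.3% after thinning (66.7% and 47.6% before).

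**Figure D1:**
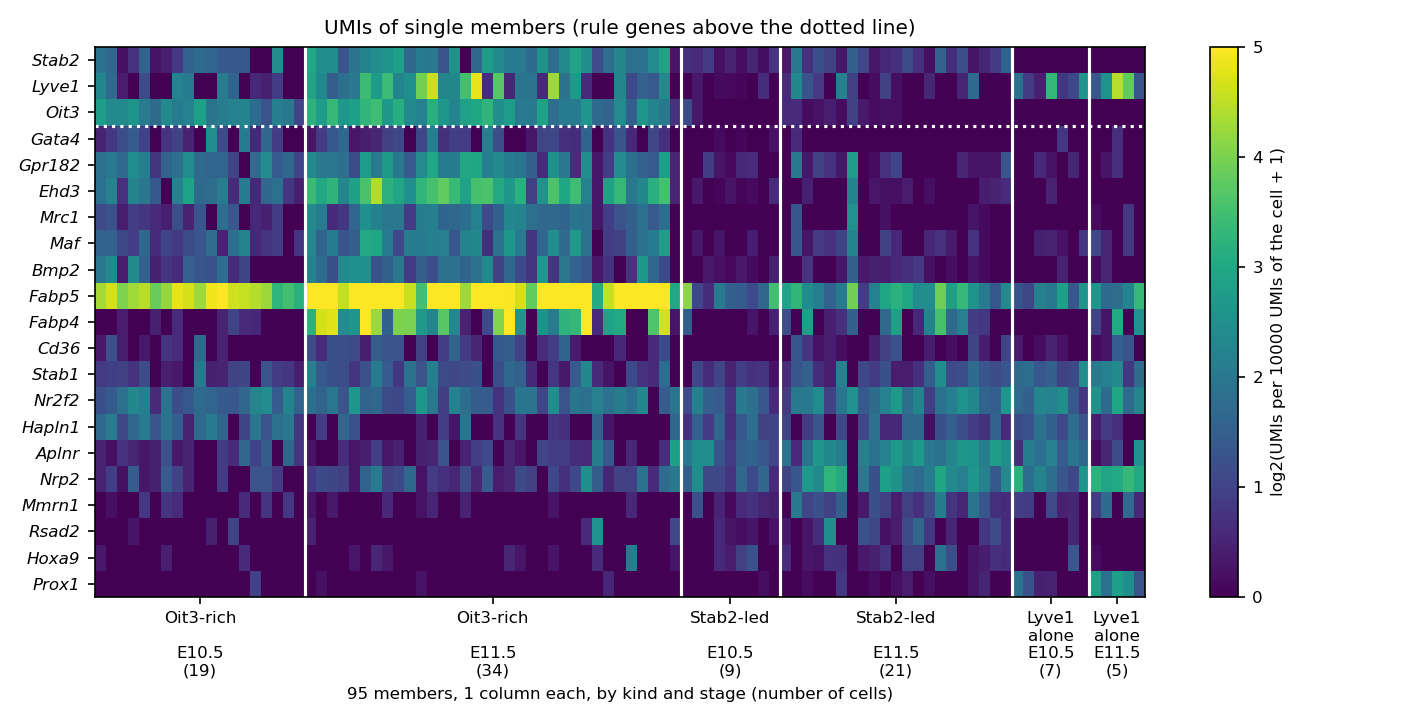
Heat map of 21 genes (rows) in each of the 95 members (columns, grouped by kind and stage), as log2(UMIs per 10000 + 1). Rule genes lie above the dotted line. Below it, Ehd3 and Gpr182 are seen in 18 of 19 and 34 of 34 Oit3-rich columns, Mrc1 in 15 and 33 and Gata4 in 14 and 27, with higher levels than in the Stab2-led cells taken as a group.

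Among the remaining scavenger and lectin receptors the pattern was uneven. Stab1, a scavenger receptor also made by macrophages, was not higher in the Oit3-rich members, at 72.1 and 139 CPM against 93.3 and 128 CPM in capillary and venous endothelium. Clec1b, known as the podoplanin receptor of platelets, was at 181 and 248.6 CPM against 153 and 132 CPM. Colec12, a scavenger receptor with a collagen stalk, was at 107 and 126 CPM against 17.1 and 27.6 CPM. The adaptor for endocytosis Dab2 was at 242 and 188 CPM against 45.4 and 49.4 CPM, and Cd36, a fatty acid receptor, at 35.2 and 80.2 CPM against 0 and 16.0 CPM. Thus 1 group of these genes stood far above capillary and venous endothelium while Stab1, Scarb1 (48.1 and 44.96 CPM) and Scarf1 (56.1 and 52.0 CPM) lay near its level. Other genes known from adult sinusoids had few UMIs. Fcgr2b had 0 and 0.882 CPM, Clec4g 4.81 and 0.882 CPM, and Dnase1l3, a nuclease, 0 and 15.0 CPM. Cd209f and Msr1 had 0 UMIs in all members. Lrp1 was at 4.81 and 10.6 CPM and clotting factor F8 at 4.81 and 7.93 CPM. The list of these receptors also holds Ehd3 and Dab2, which are not receptors. Of its 10 genes with at least 20 UMIs over both classes, 6 were at least 2-fold higher than in capillary and venous endothelium at each stage. Over all 7670 genes of that depth, 3.19% were at least 2-fold higher and 6.86% lower at E10.5, and 5.11% and 4.69% at E11.5. The median log2 difference of the 10 listed genes was 2.53 and 2.06, and that of all genes -0.05 and -0.02. Ehd3, Gpr182 and Mrc1 are among these 10 and are also the genes described above.

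Across all genes, 57 of 5074 genes (1.12%) were at least 2-fold higher in the Oit3-rich members than in capillary and venous endothelium at both stages, and 57 (1.12%) were at least 2-fold lower. Against the Stab2-led members the counts were 44 of 3883 genes (1.13%) higher and 30 (0.773%) lower. These cells were chosen by Oit3, Stab2 and Lyve1, so the counts describe the split and test nothing. Fabp5, a fatty acid carrier, was at 2060 and 4662 CPM against 325 and 640 CPM in capillary and venous endothelium. Every Oit3-rich cell held it, from 828 CPM upwards at E10.5 and 734 CPM upwards at E11.5. Hepatoblasts held as much or more, at 4641 and 6380 CPM. The 8 hepatoblast markers summed to 56.1 and 145 CPM in the Oit3-rich members, to 41.0 and 90.5 CPM in the Stab2-led members and to 223 and 769 CPM in capillary and venous endothelium, against 23430 and 55284 CPM in hepatoblasts. The marker sum was thus lower in the Oit3-rich members than in capillary and venous endothelium and higher than in the Stab2-led members, and its part in Fabp5 was not tested. Gatm was at 216 and 157 CPM against 19.7 and 4.35 CPM. Akr1b8, an aldo-keto reductase, was at 115 and 153 CPM against 5.04 and 1.45 CPM. Emb, an adhesion protein that accompanies lactate transporters, was at 157 and 110.2 CPM against 7.57 and 5.81 CPM. It was as high in arterial endothelium, at 162 and 115 CPM. Apoe, a lipid carrier, was at 482 and 948 CPM against 29.3 and 179 CPM, with 6680 CPM in macrophages at E11.5. Arterial cells held Apoe as well, with a median of 230 and 171 CPM per cell against 452 and 984 CPM per Oit3-rich cell. Cavin2, a coat protein of caveolae, was at 80.1 and 200.1 CPM against 4.54 and 21.8 CPM.

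**Figure D2:**
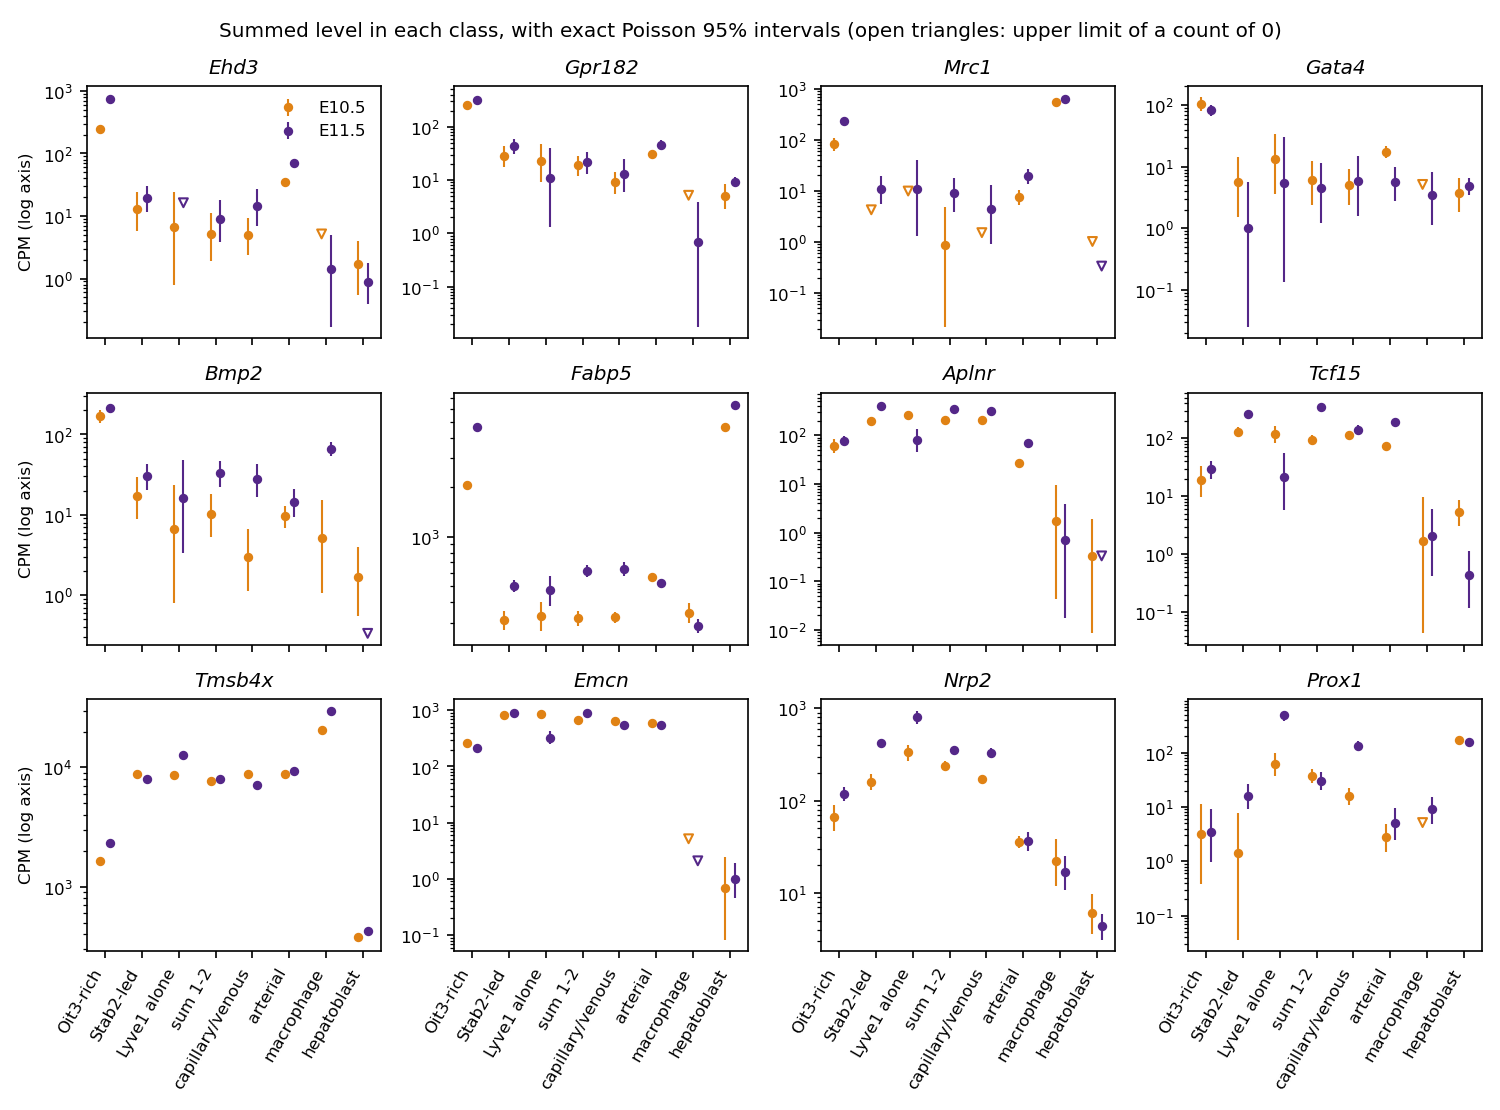
Levels of 12 genes (CPM, log axes) in 8 classes at E10.5 and E11.5, with exact Poisson 95% intervals. Open triangles are upper limits where a class had 0 UMIs. Ehd3 and Gpr182 peak in the Oit3-rich members, Mrc1 in macrophages, and Tmsb4x is lower in the Oit3-rich members than in the other endothelial classes.

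Among the genes lower in the Oit3-rich members was Tmsb4x, which encodes an actin-binding peptide, at 1656 and 2328 CPM. It was at 8831 and 7972 CPM in the Stab2-led members, 8874 and 7107 CPM in capillary and venous endothelium and 8796 and 9376 CPM in arterial endothelium. Per cell, Tmsb4x ranged from 785 to 3790.0 CPM in the Oit3-rich members at E10.5, with a median of 1648 CPM, and from 937 to 4309 CPM at E11.5, with a median of 2155 CPM. In the Stab2-led members the range was 2820.2 to 13042 CPM at E10.5 and 2082 to 11917 CPM at E11.5. The kinds overlapped in part of these ranges. Hepatoblasts were lower still, at 380.4 and 422 CPM.

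Aplnr, the apelin receptor of veins and growing capillaries, was at 60.9 and 77.6 CPM in the Oit3-rich members against 205 and 311 CPM in capillary and venous endothelium. Emcn, a sialomucin of veins and capillaries, was at 261 and 212 CPM against 655 and 552 CPM, and the mesodermal factor Tcf15 at 19.2 and 29.1 CPM against 113 and 139 CPM. All were lower at both stages, by 2.51-fold (Emcn at E10.5) to 5.90-fold (Tcf15 at E10.5). Col15a1, a basement-membrane collagen, had 0 UMIs in 19 Oit3-rich cells at E10.5 and was seen in 3 of 34 at E11.5. It was at 0 and 11.46 CPM against 45.9 and 187 CPM in capillary and venous endothelium. Bmp4, a BMP ligand, was at 1.60 and 4.41 CPM against 83.4 and 74.4 CPM in the Stab2-led members. The related ligand Bmp2 ran the other way, at 168 and 211 CPM against 17.0 and 30.2 CPM. In the venous and lymphatic list, 4 of 10 genes measured at E10.5 and 5 of 10 at E11.5 were at least 2-fold lower than in capillary and venous endothelium, with medians of -0.27 and -1.11 on the log2 scale. Of all genes, 6.86% and 4.69% were at least 2-fold lower. Nr2f2, the factor of venous identity, was not among the lower genes, at 227 and 264 CPM against 182 and 215 CPM.

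The cells were also compared singly. Gpr182, Ehd3 and Aplnr are named above for differing between these same cells, so the counts describe how the difference is spread over cells and support nothing further. The sum of Gpr182 and Ehd3 exceeded Aplnr in 19 of 19 Oit3-rich cells at E10.5 and 32 of 34 at E11.5. It did so in 0 of 9 and 2 of 21 Stab2-led cells and in 0 of 7 and 0 of 5 Lyve1-alone cells. The 2 Stab2-led exceptions at E11.5 include a shallow cell of 10512 UMIs with 27.6% haemoglobin UMIs, which held 6 UMIs of Gpr182, 4 of Ehd3 and 5 of Mrc1. With 1 UMI of Oit3 it fell outside the Oit3 limit. The 2 Oit3-rich cells at E11.5 that did not follow held 13 and 28 UMIs of Aplnr. They had 1 and 2 UMIs of Gpr182, 1 and 2 of Ehd3 and 0 of Maf.

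**Figure D3:**
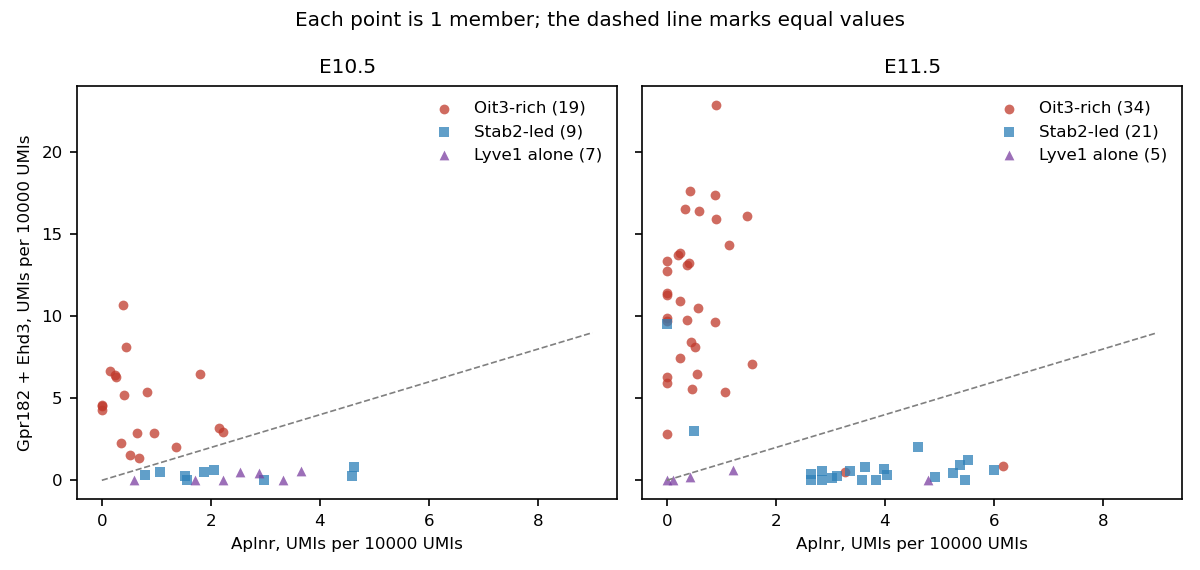
Sum of Gpr182 and Ehd3 against Aplnr in each member (UMIs per 10000), coloured by kind, with a dashed line of equality. All 19 Oit3-rich cells at E10.5 and 32 of 34 at E11.5 lie on the Gpr182 and Ehd3 side, while 9 of 9 and 19 of 21 Stab2-led cells do not.

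The Stab2-led members lay close to capillary and venous endothelium in several of the genes that set the Oit3-rich members apart. The log2 difference from that class was -0.01 and 0.17 for Tmsb4x, -0.06 and -0.34 for Fabp5 and -0.05 and 0.37 for Aplnr. They were higher for Gpr182, by 1.64 and 1.73 on the log2 scale, and for Dab2, by 1.18 and 1.37. Cd59a, an inhibitor of complement, was higher by 0.86 and 1.16. These levels were still below those of the Oit3-rich members. Their median depth was 70746 and 49993 UMIs against 27986 and 15841 in capillary and venous endothelium, and the part of depth in choosing them by 3 UMIs was not tested.

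The Lyve1-alone members held genes of venous and lymphatic endothelium. Prox1, the factor that sets lymphatic identity, was at 62.6 CPM at E10.5 and 483 CPM at E11.5, against 3.20 and 3.53 CPM in the Oit3-rich members. Per cell its median was 37.5 CPM (0 to 275) over 7 cells at E10.5 and 451 CPM (160 to 638) over 5 cells at E11.5. At least 2 UMIs were present in 4 of 7 and 5 of 5 of these cells. Of all Prox1 UMIs in members, 19 of 22 and 89 of 109 were in this kind, with 58 of the latter in 1 cell. The lymphatic list of 4 genes summed to 109 and 668 CPM, against 61.0 and 210.5 CPM in capillary and venous endothelium. Hepatoblasts also held Prox1, at 169 and 159 CPM. The hepatoblast markers summed to 95.5 and 130.3 CPM in this kind, and their part in Prox1 was not tested. Nrp2, a receptor for lymphatic growth factors, was at 333 and 804 CPM against 65.7 and 119 CPM in the Oit3-rich members. At E11.5 the podoplanin gene Pdpn was at 76.0 CPM and the matrix protein gene Reln at 65.2 CPM, against 6.59 CPM and 0 at E10.5. These values rest on 7 and 5 cells.

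Members made up 0.457% (0.318 to 0.634) of passing barcodes at E10.5 and 0.674% (0.514 to 0.866) at E11.5, a 1.48-fold (0.957 to 2.31) difference. Intervals for shares are exact Clopper-Pearson. Among endothelial barcodes, those with at least 2 UMIs of Cdh5, members were 35 of 351 (9.97%, 7.04 to 13.6) and 60 of 250 (24.0%, 18.8 to 29.8), a 2.41-fold (1.56 to 3.76) higher share at E11.5. With at most 5% mitochondrial UMIs the shares were 16.3% and 29.9%, and with a rule sum of at least 6 they were 5.41% and 17.6%. The Oit3-rich members alone were 5.41% (3.29 to 8.32) and 13.6% (9.61 to 18.5), 2.51-fold (1.39 to 4.66) higher. Arterial cells made up 54.1% and 32.4% of endothelial barcodes, 0.599-fold (0.456 to 0.780), and capillary and venous cells 16.8% and 14.4%. Hepatoblasts were 2.56-fold (1.97 to 3.36) more frequent among passing barcodes at E11.5. The higher share of members thus went with more hepatoblasts and fewer arterial cells, and the proportion of liver to aorta tissue in each library was not given in the sources used here. Whether that proportion set the shares cannot be told apart from a change in the organ. Of the members, Oit3-rich cells made 54.3% (36.6 to 71.2) at E10.5 and 56.7% (43.2 to 69.4) at E11.5. Stab2-led cells made 25.7% (12.5 to 43.3) and 35.0% (23.1 to 48.4), with overlapping intervals. Lyve1-alone cells made the rest, with intervals of 8.44% to 36.9% and of 2.76% to 18.4%.

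Between stages, more genes of the Oit3-rich members were higher at E11.5 than lower, and the fatty acid carrier Fabp4 differed most. Of 5003 genes with at least 50 UMIs, 284 (5.68%) were at least 2-fold higher at E11.5 and 63 (1.26%) at least 2-fold lower. Over all members, 422 of 7410 genes (5.70%) were higher and 82 (1.11%) lower. Fabp4, a gene of capillaries (ENSMUSG00000062515), was at 17.6 CPM at E10.5 and 1029 CPM at E11.5 in the Oit3-rich members, a log2 difference of 5.87 (5.02 to 6.87). Its UMIs were in 7 of 19 cells at E10.5 with a highest value of 106 CPM. At E11.5 they were in 30 of 34 cells with a median of 611 and a highest value of 5118 CPM. After thinning to 5000 UMIs a UMI was present in 2 of 19 and 27 of 34 cells (7 and 30 before), and in 0 of 76 and 2 of 226 hepatoblasts before thinning. Fabp4 was also higher at E11.5 in the Stab2-led members, by 4.33, in capillary and venous endothelium, by 5.54, and in arterial endothelium, by 3.79, so the difference was common to the endothelial classes.

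Some genes differed more between the stages in the Oit3-rich members than in the Stab2-led members. Gpx3, a secreted peroxidase, was at 32.0 and 216 CPM, a log2 difference of 2.75 (2.09 to 3.49), with a UMI in 11 of 19 and 33 of 34 cells. In the Stab2-led members the difference was 0.04 and in capillary and venous endothelium -0.10. Esm1, a proteoglycan of endothelial tip cells, was at 4.81 and 105 CPM, 4.45 (2.87 to 6.75), with a UMI in 2 of 19 and 24 of 34 cells and in none of the 21 Stab2-led cells at E11.5. Arterial endothelium had 20.6 and 81.3 CPM. Kcne3, a potassium channel subunit, was at 48.1 and 219.5 CPM, 2.19 (1.64 to 2.79). It had a UMI in 4 of 19 cells and 25 of 34, and its difference in the Stab2-led members was -0.85. The retinoid carrier Crabp1 was at 4.81 and 197 CPM, 5.35 (3.79 to 7.64), with a UMI in 2 of 19 and 13 of 34 cells. Stroma held more, at 289 and 885 CPM, and the part of stromal RNA in Crabp1 was not tested. The Wnt antagonist Sfrp1 was 2.76 higher, from 11.2 to 75.8 CPM, and was 1.55 higher in stroma. Selenop, a selenium transport protein, was at 173 and 639 CPM, and was 0.92 lower on the log2 scale in capillary and venous endothelium. The matrix protein Tinagl1 (6.41 and 88.2 CPM), the growth factor binder Igfbp3 (20.8 and 104 CPM) and the early-response gene Btg2 (36.8 and 152 CPM) were also higher in the other endothelial classes. The differences between kinds were not tested.

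The genes of the sinusoidal pattern moved unequally. The log2 difference in the Oit3-rich members was 1.59 (1.34 to 1.85) for Ehd3, 1.52 (1.08 to 1.98) for Mrc1, 1.18 for Fabp5 and 0.99 for Maf. It was 0.31 for Gpr182, 0.33 for Bmp2 and -0.34 (-0.82 to 0.14) for Gata4. Ehd3 and Mrc1 thus stood higher at E11.5 while the interval of Gata4 includes no difference. Vcam1, an adhesion molecule for blood cells, was at 19.2 and 81.1 CPM, and hepatoblasts held 57.9 and 176 CPM. Irf8, a factor of myeloid cells, was at 9.61 and 44.96 CPM. Odc1, the first enzyme of polyamine synthesis, was at 418 and 933 CPM, 1.16 higher, and was lower at E11.5 in the Stab2-led members, by 0.34, and in capillary and venous endothelium, by 0.28.

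Lower at E11.5 in the Oit3-rich members was Hpgd, which breaks down prostaglandins, at 247 and 67.0 CPM, a log2 difference of -1.88 (-2.30 to -1.47). It was higher at E11.5 in the Stab2-led members, at 26.8 and 105 CPM (1.96), and in capillary and venous endothelium (1.06). Per Oit3-rich cell the median was 247 CPM at E10.5 and 43.1 CPM at E11.5. The Oit3-rich and other endothelial cells thus moved in opposite directions for Hpgd. Hapln1, a linker of hyaluronan, was at 209.8 and 57.3 CPM (-1.87). Klf2, a factor induced by flow, was at 235 and 90.8 CPM (-1.37), and was 1.19 higher in arterial endothelium at E11.5. Fdps, an enzyme of cholesterol synthesis, was at 221 and 83.7 CPM (-1.40), with lower values at E11.5 in the other endothelial classes as well. The contractile gene Tagln was at 96.1 and 31.7 CPM, the lysosomal membrane gene Laptm4b at 135 and 39.7 CPM and the haem binder Hebp1 at 81.7 and 23.8 CPM.

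**Figure D4:**
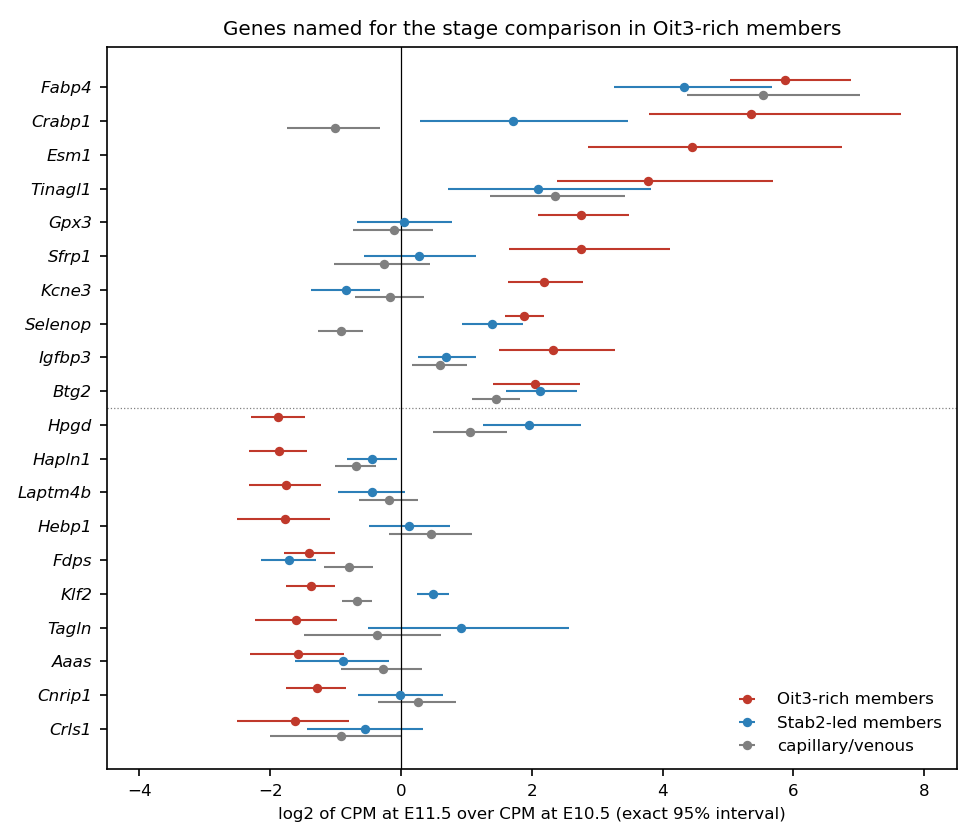
Log2 ratio of E11.5 over E10.5 for the 20 genes named for the stage comparison, in Oit3-rich members, Stab2-led members and capillary and venous endothelium, with exact conditional 95% intervals. Points with under 20 UMIs or a 0 are left out. Fabp4 is higher in all 3 classes, while Hpgd is lower in the Oit3-rich members and higher in the other 2.

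Over all members, the named genes that were higher at E11.5 included Sparcl1, a matrix protein, at 12.8 and 145 CPM. Most of this came from the Stab2-led members, at 15.5 and 260 CPM, with capillary and venous endothelium at 24.7 and 247 CPM. Tm4sf1, a membrane protein of endothelium, was at 15.3 and 80.4 CPM, and the imprinted RNA H19 at 333 and 1103 CPM. Lower at E11.5 were Rrm2, a subunit of the enzyme that makes deoxynucleotides, at 323 and 128 CPM, Alad, a haem enzyme, at 133 and 52.3 CPM, and Mthfd2, of mitochondrial folate metabolism, at 77.6 and 28.5 CPM. The antioxidant gene Prdx1 was at 2042 and 1080.2 CPM. These were also lower at E11.5 in capillary and venous and in arterial endothelium.

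Gene groups moved as follows between stages in the Oit3-rich members. For genes with at least 20 UMIs, 8.33% of 7576 were at least 2-fold higher at E11.5 and 2.43% lower, with a median of 0.06 on the log2 scale. Of 13 continuous-capillary genes, 7 were at least 2-fold higher and 0 lower, with a median of 1.18. Of 13 basement-membrane genes, 6 were at least 2-fold higher, with a median of 0.78. The collagen IV chains Col4a1 (264 and 667 CPM) and Col4a2 (138 and 277 CPM) and the laminin Lama4 (8.01 and 52.0 CPM) were among the higher genes. Among 11 genes of a list of VEGF and angiopoietin receptors and ligands, 5 were at least 2-fold higher (median 0.86). Kdr, the main VEGF receptor, was at 453 and 669 CPM. The scavenger list had 3 of 10 at least 2-fold higher (median 0.39), the sinusoid factors 2 of 14 (0.17), and the angiocrine list 4 of 13 (0.33). The dissociation-response list had 4 of 14 at least 2-fold higher with a median of 0.50, and the part of dissociation in the other differences was not tested. Of all 7576 genes, 54.8% were higher at E11.5 and 45.2% lower. Of 16 S-phase genes, 13 were lower (median -0.31). Of 15 G2 and M genes 10 were higher (median 0.15), near the share over all genes. Mki67, which marks dividing cells, was at 128 and 394 CPM with a UMI in 14 of 19 and 30 of 34 cells. Of 14 genes of cholesterol synthesis, 13 were lower (median -0.29). Interferon and antigen-presentation genes were higher in 7 of 7 (median 0.51), with Ifitm3 at 41.6 and 55.5 CPM. Over all members, for 9471 genes with at least 20 UMIs, 8.30% were at least 2-fold higher and 1.88% lower (median 0.10). There 16 of 16 S-phase genes and 14 of 14 cholesterol genes were lower at E11.5, with medians of -0.52 and -0.38, against 42.3% of all genes.

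Most glycolysis genes were lower at E11.5 in the other endothelial classes but not in the Oit3-rich members. In the Oit3-rich members, 9 of 14 were higher and 5 lower, with a median log2 difference of 0.31, where 54.8% of all genes were higher. In the Stab2-led members 11 of 13 were lower (median -1.11), in capillary and venous endothelium 11 of 14 (median -0.79) and in arterial endothelium 12 of 14 (median -0.75). Of all genes, 44.0%, 49.2% and 47.8% were lower in these 3 classes. The medians over all genes were 0.06, 0.09, 0.01 and 0.03 in the same order. The summed level of the list was 12484 and 12315 CPM in the Oit3-rich members and 10572 and 4530 CPM in the Stab2-led members. In hepatoblasts it was 11549 and 11980 CPM, and the hepatoblast markers were at 56.1 and 145 CPM in the Oit3-rich members.

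Ldha, which turns pyruvate into lactate, ranged from 1776 to 3782 CPM per Oit3-rich cell at E10.5 and from 703 to 3943 CPM at E11.5, with medians of 2498 and 2421 CPM. In the Stab2-led cells the medians were 1885 CPM (1321 to 2820.2) and 519 CPM (244 to 1075). The kinds overlapped between 1776 and 2820.2 CPM at E10.5 and between 703 and 1075 CPM at E11.5. Pgk1, an enzyme of the ATP-yielding phase, had a median of 1086 and 1774 CPM per Oit3-rich cell and 791 and 297 CPM per Stab2-led cell. For Eno1 the sums were 839 and 722 CPM in the Oit3-rich members and 774 and 191 CPM in the Stab2-led members. Hk1 (11.2 and 58.2 CPM) and Pfkp (16.0 and 65.2 CPM), which act at the early steps, were at least 2-fold higher at E11.5 in the Oit3-rich members. Over all members the list's median was -0.23, and it was 0.12 with a mean over cells and 0.07 with a rule sum of at least 6.

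**Figure D5:**
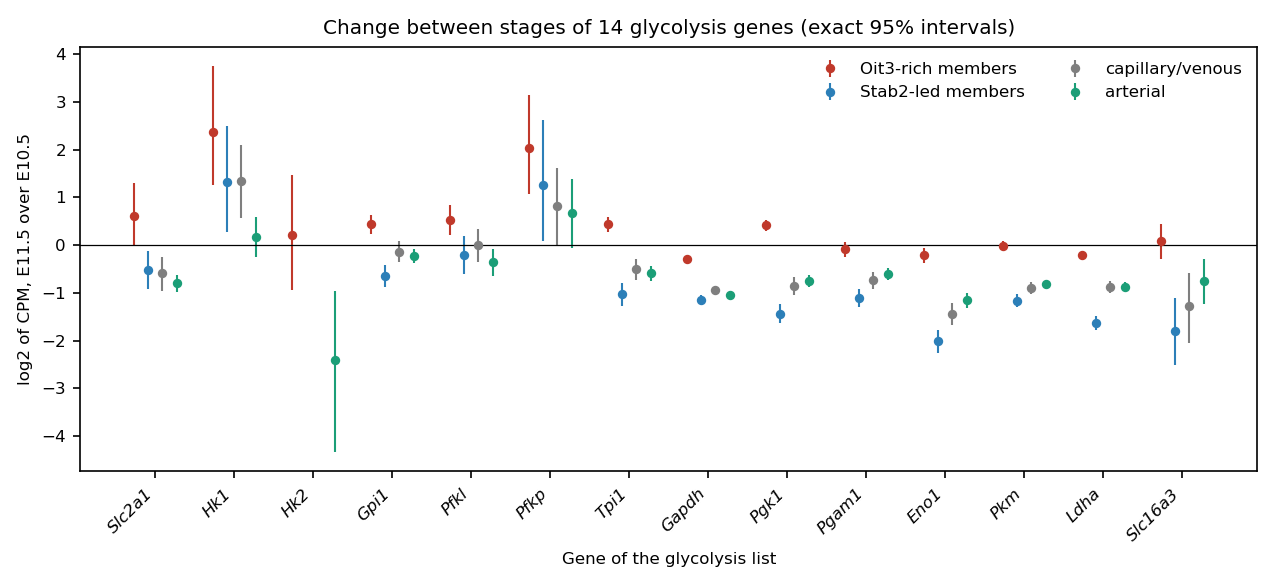
Log2 ratio of E11.5 over E10.5 for 14 glycolysis genes in Oit3-rich members, Stab2-led members, capillary and venous endothelium and arterial endothelium, with exact conditional 95% intervals. The Oit3-rich points lie near or above 0 (median 0.31), and most points of the other classes lie below 0 (medians -1.11, -0.79 and -0.75).

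The niche ligands are a further group known for sinusoids. Bmp2 was 55.6-fold and 7.64-fold higher in the Oit3-rich members than in capillary and venous endothelium. The folds rest on few counts, since 4 of 59 and 9 of 36 capillary and venous cells held Bmp2, with at most 2 and 6 UMIs in a cell. Bmp6, which with Bmp2 instructs hepatocytes on iron, was at 6.41 and 14.1 CPM, with 0 in capillary and venous endothelium and 10.8 and 21.0 CPM in arterial endothelium. The adult sinusoid ligands Wnt2 and Wnt9b had 0 UMIs in the Oit3-rich members at both stages, which allows up to 4.81 and 2.64 CPM, and Hgf was at 1.60 and 12.3 CPM. Kitl, the ligand of the receptor Kit on blood progenitors, was at 48.1 and 74.1 CPM, below the 86.7 and 103 CPM of capillary and venous endothelium. Cxcl12, a chemokine that holds blood progenitors, was at 73.7 and 64.4 CPM. Igf1, a growth factor, was at 109 and 56.4 CPM in the Oit3-rich and 103 and 343 CPM in the Stab2-led members. Hox genes, which differ along the body axis, were lower in the Oit3-rich members than in capillary and venous endothelium at E10.5, with 7 of 13 at least 2-fold lower and a median of -1.33, against 6.86% of all genes. At E11.5, 4 were at least 2-fold lower and 3 higher (median -0.17), against 4.69% and 5.11% of all genes. Of 23 UMIs of Hoxa9 in the Oit3-rich members at E11.5, 14 were in 1 cell.

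Against arterial endothelium, all members together had 80 of 7928 genes (1.01%) at least 2-fold higher at both stages and 431 (5.44%) lower. Against capillary and venous endothelium, 37 of 6488 (0.570%) were higher and 4 (0.0617%) lower. Arterial barcodes were chosen by connexin genes and members by their absence, so these counts follow in part from the choice. With at most 5% mitochondrial UMIs the counts against arterial cells were 34 and 179, and with a mean over cells 155 were higher. Over 9922 genes with at least 20 UMIs, the share at least 2-fold lower was 14.7% at the earlier stage and 9.92% at the later, and the share at least 2-fold higher was 2.19% and 4.24%. Of 17 arterial-identity genes, 17 were at least 2-fold lower at both stages (medians -3.01 and -2.46), with medians over all genes of -0.17 and -0.11. In the Oit3-rich members the Notch target Hey1 was at 3.20 and 1.76 CPM against 219 and 217 CPM in arterial cells, and the Notch ligand Jag1 at 6.41 and 3.53 CPM against 103 and 209 CPM. Vwf, the clotting protein of large vessels, was at 4.81 and 6.17 CPM against 431 and 509.9 CPM. Basement-membrane genes were at least 2-fold lower in 15 of 16 at E10.5 and 10 of 16 at E11.5. All 16 S-phase and all 15 G2 and M genes were higher than in arterial cells, with medians of 0.54 and 0.59 and of 0.48 and 0.63, where 38.2% and 41.3% of all genes were higher. The receptor Aplnr, the transcription factor Myc and Odc1 were among the genes named as higher. Myc was at 63.0 and 62.7 CPM against 14.3 and 15.3 CPM in arterial cells, and Fam167b at 77.0 and 166 CPM against 20.4 and 49.6 CPM.

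RNA of blood cells was uneven among the members. Haemoglobin made at least 1% of UMIs in 1 member at E10.5 (21.7%, Stab2-led) and in 2 at E11.5 (27.6%, Stab2-led, and 1.01%, Oit3-rich). The megakaryocyte gene Pf4 had 41 UMIs in the Oit3-rich members at E11.5, 26 of them in 1 cell. The median mitochondrial share was 3.38% and 3.17%. In all, 37 barcode sequences occurred in both libraries, 1 of them a member at E10.5 and none a member at E11.5.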

How the data were processed

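Single-cell RNA was captured from 2 libraries, 1 per stage, with the 10x 3' v3.1 kit, per the labels' protocols. The deposited matrices hold UMI counts per gene and barcode, made with Cell Ranger 5.0.0 on mm10 (GRCm38), per the submitters' processing notes. From these counts, UMIs were summed per class and stage with Python 3.11.15, numpy 2.4.6, pandas 2.3.3 and scipy 1.17.1. Haemoglobin and mitochondrial genes were left out of the totals. Shares carry exact Clopper-Pearson, CPM exact Poisson and ratios exact conditional 95% intervals, which cover counting error only, since UMIs of 1 library are no replicates. A count of 0 allows up to 3 counts. Gene counts used at least 50 UMIs over both sides and lists at least 20. A difference was counted from 2-fold. The interval code was tested on simulated data.

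Hepatoblasts were barcodes with Hnf4a and at least 20 UMIs of Alb, Afp and Ttr, macrophages had at least 10 UMIs of C1qa, C1qb and C1qc, and stroma had at least 2 of Pdgfra, all without Cdh5. Named genes were the 10 each way between stages and the 12 each way against other endothelium. They had the largest interval bound on the side nearest to 0, and against other endothelium the smaller such bound of the 2 stages was used. The higher side had at least 50 CPM, at both stages for the comparison with other endothelium. It also had at least 10% of the highest comparator class, except for genes lower than in other endothelium. Sinusoid-list genes and examples of the other lists were added. Some genes that this rule names are not reported here. Genes whose symbol occurs more than once (35) were left out of lists. Doublets were kept: Scrublet in scanpy 1.11.5 marked 1 of 8705 and 0 of 9756 barcodes, so its calls were not used. Leaving out the 8% with the highest score was an alternative, and these held 3 of 35 members at E10.5 and 8 of 60 at E11.5. The members and lists were chosen with earlier results of these data known. The Oit3 limit, and the alternatives that keep Oit3-rich members alone or leave out members with at least 1% haemoglobin, were chosen after seeing the data.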

Additional observations from a re-analysis of the deposited data

Results flagged for a closer look

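Among the named genes and the gene lists, 4 results passed set limits for opposite directions between stages in the Oit3-rich and the Stab2-led members. A gene needed at least 50 UMIs in each kind, a set size of difference in both and both intervals away from 0. A list needed medians of opposite sign that lay at least 2-fold apart. Other genes, such as Odc1 and Igf1, also ran in opposite directions without being counted here. None of these differences was tested, since each stage is 1 library. The Stab2-led sums at E10.5 rest on 9 cells, of which the deepest held 189622, 150037 and 101136 of 750937 UMIs. The last of these cells had 21.7% haemoglobin UMIs. The log2 ratio of E11.5 over E10.5 for Hpgd was -1.88 in the Oit3-rich and 1.96 in the Stab2-led members, a difference of -3.84. For Kcne3 it was 2.19 and -0.85, a difference of 3.04. For Ebf1, a transcription factor, it was -0.86 and 1.21, a difference of -2.08. The median of the glycolysis list was 0.31 and -1.11, a difference of 1.42.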

How the results depend on the processing

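With at most 5% mitochondrial UMIs, members made 16.3% and 29.9% of endothelial barcodes, and 34 genes were higher and 179 lower than in arterial endothelium. With a sum of at least 6 over Stab2, Lyve1 and Oit3, the shares were 0.248% and 0.494% of passing and 5.41% and 17.6% of endothelial barcodes, with 28 genes lower than in capillary and venous endothelium. That count was 9 without the Lyve1-alone members, 11 without the 8% of barcodes with the highest doublet score and 26 with a mean over cells, which also gave 155 genes higher than in arterial endothelium. Thinned to 5000 UMIs, where fewer genes could be counted, 65 genes were higher and 28 lower at E11.5, 3 and 0 against capillary and venous endothelium, and 41 and 181 against arterial endothelium. With at least 200 UMIs a gene, which also leaves fewer genes, the counts were 101 and 16, 10 and 0, and 25 and 174. Oit3-rich members alone made 0.248% and 0.382% of passing and 5.41% and 13.6% of endothelial barcodes. They gave 57 and 57 genes against capillary and venous endothelium and 122 higher than in arterial endothelium. Except where stated, the cause was not tested. The named genes were chosen for their differences in these same data, so a kept direction is no support. A minimum of 1000 or 5000 UMIs left the same 35 and 60 members. Of 1350 values of named genes under the alternatives, 218 lay outside the interval of the value as reported, and 1131 were at least 2-fold. After thinning only 42 values could be compared. The direction was kept in 1349 of the 1350. The exception was Dlk1 against capillary and venous endothelium at E11.5, 0.05 with at most 5% mitochondrial UMIs. Left out were 3 gene values and 14 alternatives with 0 UMIs on a side. Of 286 list medians, 272 kept their direction, and the glycolysis median over all members was 0.07 with a sum of at least 6, 0.12 with a mean over cells and 0.31 in Oit3-rich members alone. No paired analysis was possible because each stage has a single library and no result comes from a test. Small classes (7 and 5 Lyve1-alone cells) limit precision.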
